A study of Mus musculus with 12 samples.

Results

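Formative and primed state genes are switched on when pluripotent cells leave the naive state of the early epiblast, and 9 of them were followed here across a dose series of BRG1 degradation in mouse embryonic stem (mES) cells. The 9 genes, Otx2, Fgf5, Pou3f1, Zic2, Utf1, Foxd3, Sox3, Sox4 and Sall2, were chosen by symbol because they are known to rise on leaving the naive state, and all 9 were found among the 24421 genes of the counts table. Earlier results of these data were known when they were chosen. The 12 RNA-seq libraries came from mES cells of strain C57BL/6J (B6 in the labels), derived from blastocysts and grown on gelatin without feeder cells in serum medium with LIF and the pair of inhibitors called 2i, which block MEK and GSK3 and hold cells in the naive state. All libraries, the controls included, carried the same genotype, Brg1 dTag knock in, in which an FKBP12 degron is fused to BRG1, the ATPase of the mSWI/SNF chromatin remodeler, and the line came from colonies grown from single cells, so it stands for 1 clonal genotype. Cells received 0 (vehicle), 0.3, 1, 3, 10 or 100 nM dTAG13, a molecule that links the degron to an E3 ligase, for 24 h, with 2 libraries at each dose. The comparisons ask how these genes respond as BRG1 is removed by degrees while the medium stays that of the naive state.

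In the naive state, cells express factors such as NANOG, ESRRB and TFCP2L1, and once ERK signalling is released they pass through a formative state, in which OTX2 and POU3F1 redirect OCT4 to new enhancers, before they become primed for lineage choice. FGF5 is the classical secreted marker of this transition, ZIC2 and FOXD3 act at enhancers that open or close during it, and DNMT3A and DNMT3B, which methylate DNA, rise with it. The mSWI/SNF complex moves nucleosomes at enhancers and promoters, and its ATPase subunit in mES cells is almost entirely BRG1.

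Promoter sequences, the 250 bases before an annotated start, were present in the RefSeq tables (GRCm38.p6) for 6 of the 9 genes. No sequence is given for Pou3f1, Zic2 and Sox3. Those of Utf1, Foxd3 and Sox4 are printed because these 3 genes have 1 annotated start each and passed a test against 0 nM at 1 dose or more. Each runs 5′ to 3′ on the strand of its gene, and capitals mark a match on either strand to the CCAAT box (CCAAT), the GC box (GGGCGG) or the TATA box (TATAAA).
Utf1, chr7:139943606-139943855, + strand: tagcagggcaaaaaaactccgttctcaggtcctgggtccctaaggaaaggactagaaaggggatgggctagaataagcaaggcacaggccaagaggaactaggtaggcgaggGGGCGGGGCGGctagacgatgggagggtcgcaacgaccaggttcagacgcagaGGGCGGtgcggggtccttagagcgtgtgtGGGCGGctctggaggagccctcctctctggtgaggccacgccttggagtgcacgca
Foxd3, chr4:99656049-99656298, + strand: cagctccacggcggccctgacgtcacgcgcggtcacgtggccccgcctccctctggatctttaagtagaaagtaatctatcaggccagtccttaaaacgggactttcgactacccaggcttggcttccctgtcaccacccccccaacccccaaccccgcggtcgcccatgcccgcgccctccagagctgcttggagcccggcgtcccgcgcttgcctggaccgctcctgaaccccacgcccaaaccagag
Sox4, chr13:28953700-28953949, - strand: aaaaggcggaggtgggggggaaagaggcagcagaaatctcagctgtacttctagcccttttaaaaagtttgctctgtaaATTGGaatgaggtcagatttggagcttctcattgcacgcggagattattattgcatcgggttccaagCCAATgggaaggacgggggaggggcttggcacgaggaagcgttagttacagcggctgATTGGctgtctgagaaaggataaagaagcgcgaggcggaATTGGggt

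The Utf1 window held 4 matches to the GC box, the letters that SP1 binds, of which the first pair share 1 base. Of 32851 promoter windows of the same length, 32.7% held a GC box and 4.09% held 4 or more. The Sox4 window held 4 matches to the CCAAT box, the letters that NFY binds, at 171, 104, 47 and 8 bases before the start. A CCAAT box was found in 33.8% of all windows and 4 or more in 0.84%. None of the 3 motifs was found in the Foxd3 window, and no match overlapped one to another motif. TATAAA, present in 12.4% of all windows, was in none of the 3 printed. Guanine and cytosine made up 61.6% of the Utf1 window, 65.6% of the Foxd3 window and 50.8% of the Sox4 window, against a median of 52.4% over all windows (quartiles 45.2% and 61.2%). A match is a description of the letters and was not tested against binding.

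Read-pair counts ran from 4663484 to 6375582 per library, of which 10.5% to 19.4% fell on Rn45s, a ribosomal RNA gene. Levels are given as RPKM, counts per kb of exon scaled to normalized library size, and the 11378 genes whose mean reached 1 RPKM were tested with the quasi-likelihood test of edgeR, with p-values adjusted after Benjamini and Hochberg. A gene passed where the adjusted p was under 0.05, and it was a DEG where it also changed over 1.5-fold. Against 0 nM, 0 genes rose and 2 fell as DEGs at 0.3 nM (862 genes had an unadjusted p under 0.05, and DESeq2 called 0), 20 rose and 88 fell at 1 nM, 168 and 281 at 3 nM, 331 and 570 at 10 nM, then 496 and 777 at 100 nM. With normalization factors computed over all genes of the table, a choice made after seeing the data, 383 rose and 957 fell at 100 nM. Over the order of doses 1527 genes rose and 1802 fell, against 1050 and 2530 with those factors and 1801 and 1279 with no factors. The transcript of BRG1 itself, Smarca4, stood at 63.2 to 71.0 RPKM in all 12 libraries, so these libraries do not measure the loss of the protein. The 8 mES cell markers summed to between 1959 and 2192 RPKM in every library, and the libraries were those of mES cells by these markers. Most of the sum at 0 nM came from Dppa5a (794 RPKM) and Pou5f1 (570 RPKM). At 100 nM 2 of the 8 markers passed higher and 3 lower, beside 23.4% of all tested genes, so a steady sum does not mean steady members. Library numbers in the labels run once through the 0, 1, 10 and 100 nM libraries and start again for those of 0.3 and 3 nM, so 0.3 and 3 nM against 0 nM cross this numbering, and 3 against 0.3, 10 against 1 and 100 against 10 nM do not. The labels do not say whether the libraries of a dose came from separate cultures, but the study describes these expression data as coming from independent experiments, so p-values measure the spread between such repeats.

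The 9 genes spanned a wide range of levels before BRG1 was degraded. At 0 nM the order of mean levels per length was Utf1 (75.3 RPKM), Zic2 (7.80), Sox4 (5.22), Foxd3 (4.47), Sall2 (2.04), Pou3f1 (1.56), Sox3 (0.608), Otx2 (0.0942) and Fgf5 (no counts in either library), and no neighbours in this order overlapped between libraries. At 100 nM Foxd3 (6.0 RPKM) lay above Sox4 (2.85 RPKM), the libraries of Sox4 and Sall2 overlapped, and so did those of Sox3 and Otx2. Utf1 lay above 93.4% of the tested genes in mean level and Zic2 above 44.3%, whereas Pou3f1 lay above 10.3%. The genes most used to mark the formative state, Otx2 and Fgf5, were the least abundant of the 9. Otx2, Fgf5 and Sox3 had means under 1 RPKM, and the 6 others were above 1 RPKM in every library, so the filter did not depend on the dose at which they were high.

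**Figure D1:**
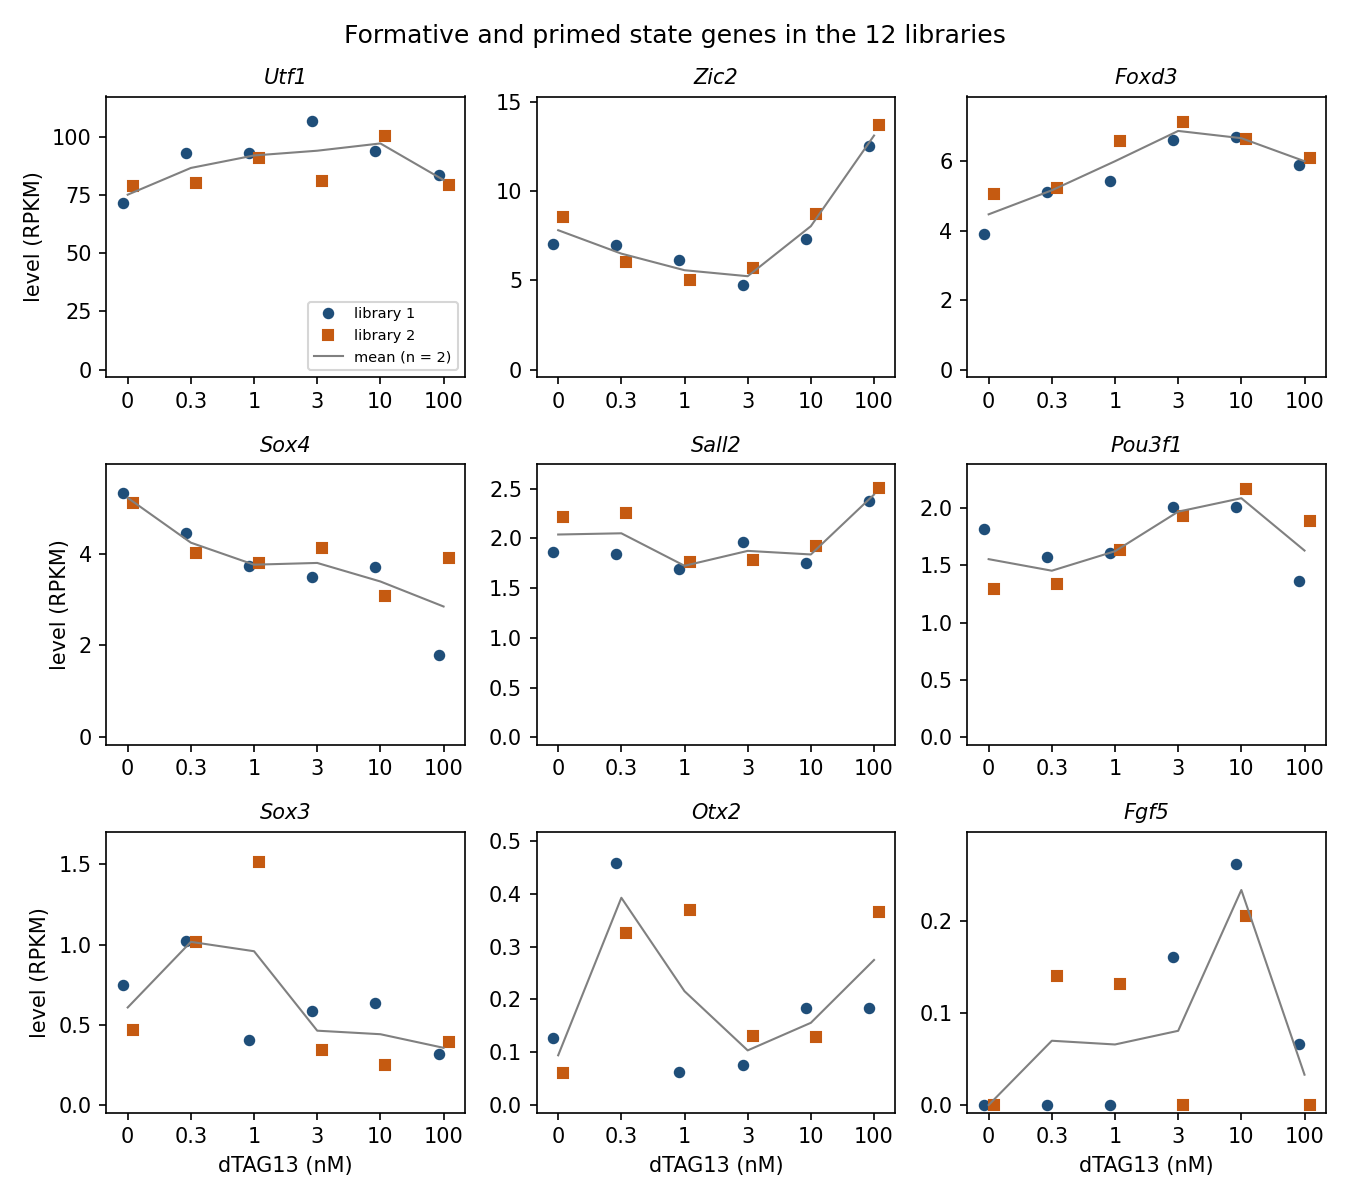
Level in RPKM (vertical axis, from 0) of each of the 9 genes against the dose of dTAG13 in nM (horizontal axis, equal steps), with circles and squares for the 2 libraries of a dose and a line through their means. Zic2 dips to its lowest values at 3 nM and is highest at 100 nM, Sox4 declines with dose with widely separated libraries at 100 nM, and Sox3, Otx2 and Fgf5 rest on few counts.

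At 100 nM 2 of the 6 tested genes passed, in opposite directions: Zic2 rose and Sox4 fell, and both were DEGs. Of all tested genes, 23.4% passed in this comparison and 11.2% were DEGs. Foxd3 and Utf1 passed only at intermediate doses, and Sall2 and Pou3f1 passed at none. In these bulk libraries, a change in the share of cells that express a gene cannot be told apart from a change in its RNA per cell. The median log2 fold change of the 6 genes was 0.19 at 100 nM, beside -5.5e-04 over all tested genes.

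Zic2 encodes a zinc finger transcription factor of the formative and primed epiblast. It lies on mm10 chromosome 14 from 122475384 to 122480328 on the + strand, with 2967 bases of counted exon in 3 blocks. Its 122 and 157 counts at 0 nM gave 7.04 and 8.57 RPKM. The libraries gave 6.98 and 6.0 RPKM at 0.3 nM, 6.14 and 4.99 at 1 nM, then 4.76 and 5.70 at 3 nM. At these 3 doses both libraries lay below both of 0 nM. At 10 nM Zic2 was back at 7.33 and 8.72 RPKM, overlapping 0 nM, and at 100 nM it reached 12.5 and 13.7 RPKM, above every other library of the series. The level thus took a course with a low point and a late rise rather than a steady one.

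The late rise of Zic2 passed the test. At 100 nM its mean was 13.1 ± 0.858 RPKM (SD, n = 2) against 7.80 ± 1.09 RPKM (SD, n = 2) at 0 nM, which is 1.68-fold (log2 fold change 0.75, standard error 0.14, edgeR adjusted p = 2.9e-04). Between 10 and 100 nM, within 1 numbering of the libraries, it rose 1.63-fold (log2 fold change 0.71, standard error 0.14, edgeR adjusted p = 0.00455), where 2.35% of genes passed and 0.958% were DEGs. Zic2 was the only one of the 6 that passed in this step. The call against 10 nM was lost without the second 100 nM library (log2 fold change 0.63, edgeR adjusted p = 0.119) or the first 10 nM library (0.59, edgeR adjusted p = 0.0709), each fit taking the lone library to vary like the other groups.

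The dip of Zic2 was smaller and less secure. At 3 nM its log2 fold change was -0.57 (standard error 0.17, edgeR adjusted p = 0.0267), and at 1 nM -0.49 (standard error 0.16, edgeR adjusted p = 0.125). The call at 3 nM was lost without the second 0 nM library (log2 fold change -0.42, edgeR adjusted p = 0.284) or the first 3 nM library (-0.44, edgeR adjusted p = 0.209). From 0.3 to 3 nM, within the other numbering, the fall of the mean was 0.31 on the log2 scale and did not pass (log2 fold change -0.31, standard error 0.17, edgeR adjusted p = 0.358). From 1 to 10 nM the level recovered by 0.53 on the log2 scale (standard error 0.16, edgeR adjusted p = 0.0480), and passed under 9 of 21 alternatives. Over the dose order the slope was 0.15 log2 units per step (edgeR adjusted p = 0.0212), and over the 8 libraries of 0, 1, 10 and 100 nM alone 0.29 (edgeR adjusted p = 0.00607). Without the first or the second 100 nM library the slope no longer passed (0.11, edgeR adjusted p = 0.121, and 0.10, edgeR adjusted p = 0.176).

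Sall2, the other zinc finger gene of the group, encodes a spalt family transcription factor and lies on chromosome 14 from 52311177 to 52328670 on the - strand. Its libraries gave 1.86 and 2.22 RPKM at 0 nM, 1.84 and 2.26 at 0.3 nM, 1.69 and 1.76 at 1 nM, 1.96 and 1.78 at 3 nM, 1.75 and 1.93 at 10 nM, then 2.38 and 2.50 at 100 nM. The 100 nM libraries lay above all others, although with 52 to 82 counts per library the difference did not pass. The log2 fold change was 0.26 at 100 nM (95% interval -0.14 to 0.65, edgeR adjusted p = 0.370) and 0.41 from 10 to 100 nM (95% interval 0.00446 to 0.81, edgeR adjusted p = 0.419). Across the 12 libraries Sall2 had the highest correlation with Zic2 among the 15 pairs of tested members (Pearson r = 0.71 of log2 RPKM), given as a description of libraries that share their doses.

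Sox4 fell with dose. It encodes an HMG box transcription factor of the SOXC group and lies on chromosome 13 from 28950730 to 28953682 on the - strand in a single exon of 2953 bases. Its 92 and 93 counts at 0 nM gave 5.33 and 5.10 RPKM. The libraries gave 4.46 and 4.02 RPKM at 0.3 nM, 3.73 and 3.79 at 1 nM, 3.48 and 4.11 at 3 nM, 3.71 and 3.08 at 10 nM, then 1.79 and 3.91 at 100 nM. Both 0 nM libraries lay above every library with dTAG13, and the 100 nM libraries, with 32 and 71 counts, differed from each other more than those of any other dose.

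At 100 nM the mean of Sox4 was 54.6% of that at 0 nM (2.85 ± 1.5 against 5.22 ± 0.163 RPKM, SD, n = 2), which as a log2 fold change is -0.87 (standard error 0.24, edgeR adjusted p = 0.00857). The size of this fall rested on the first 100 nM library. Without it the log2 fold change was -0.41 (edgeR adjusted p = 0.246), and without the second it was -1.54 (edgeR adjusted p = 2.8e-04). Without the first 0 nM library the value was -0.84 with an edgeR adjusted p of 0.0521. The trend over the dose order was firmer: the slope was -0.15 log2 units per step (standard error 0.039, edgeR adjusted p = 0.00472), it passed under all 22 alternatives (edgeR or DESeq2 adjusted p from 6.5e-04 to 0.0340), and over the 8 libraries of 0, 1, 10 and 100 nM it was -0.28 (edgeR adjusted p = 0.0135). Over the dose order 29.3% of all tested genes passed, as did 3 of the 6 members, Zic2, Foxd3 and Sox4. At 10 nM the log2 fold change was -0.62 (edgeR adjusted p = 0.0688). Within 1 numbering no step of Sox4 passed. The log2 fold change was -0.15 from 0.3 to 3 nM (edgeR adjusted p = 0.792) and -0.15 from 1 to 10 nM (0.812). From 10 to 100 nM it was -0.25 (0.782), and 0.20 without the first 100 nM library. The slope of Sox4 uses the same 0 and 100 nM libraries as the comparison at 100 nM, so it is no separate support. In the GENCODE annotation, 942 bases (31.9%) of the Sox4 exon lie under the lincRNA Gm26735 on the opposite strand. The counting did not use strand. Whether reads of the shared bases were counted for Sox4 or left out was not checked.

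Sox3, on the X chromosome from 60891366 to 60893430, encodes a SOXB1 factor related to SOX2. It had 9 and 6 counts at 0 nM, 12 and 12 at 0.3 nM, 5 and 19 at 1 nM, 6 and 4 at 3 nM, 8 and 3 at 10 nM, then 4 and 5 at 100 nM. The levels ran from 0.249 to 1.51 RPKM, and the libraries of 1 nM alone spanned nearly all of this range. In a second fit of the 23204 genes with a count, in which 13.5% passed at 100 nM, its log2 fold change at 100 nM was -0.75 (95% interval -2.11 to 0.62, edgeR adjusted p = 0.544), and a slope of -0.23 log2 units per dose step did not pass (edgeR adjusted p = 0.162). A difference between the responses of Sox3 and Sox4 was not tested.

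Foxd3 was highest at 3 and 10 nM. It encodes a forkhead transcription factor that acts at enhancers during the exit from the naive state, and it lies on chromosome 4 from 99656299 to 99658671 on the + strand in 1 exon, which also holds 89 bases of the annotated miRNA Gm23366. The libraries gave 3.89 and 5.05 RPKM at 0 nM, 5.10 and 5.22 at 0.3 nM, 5.42 and 6.58 at 1 nM, 6.63 and 7.12 at 3 nM, 6.69 and 6.64 at 10 nM, then 5.90 and 6.10 at 100 nM. All 10 libraries with dTAG13 lay above both of 0 nM, although the second 0 nM library (5.05 RPKM) was just under the lowest of them (5.10 RPKM).

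Against 0 nM the level of Foxd3 was 1.53-fold at 3 nM (log2 fold change 0.62, standard error 0.18, edgeR adjusted p = 0.0326) and 1.49-fold at 10 nM (log2 fold change 0.57, standard error 0.18, edgeR adjusted p = 0.0293). At 100 nM it was 1.34-fold and did not pass (log2 fold change 0.42, standard error 0.18, edgeR adjusted p = 0.104), and the change from 10 to 100 nM was -0.15 (95% interval -0.51 to 0.21), so a decline between these doses was not shown. Without the first 0 nM library, the lowest of the series, the log2 fold change was 0.45 at 3 nM (edgeR adjusted p = 0.285) and 0.40 at 10 nM (edgeR adjusted p = 0.263). Leaving out either library of 3 nM (edgeR adjusted p = 0.0683 and 0.179) or of 10 nM (0.0976 and 0.0894) also ended the call at that dose. Within 1 numbering, the rise from 0.3 to 3 nM was 0.41 on the log2 scale (edgeR adjusted p = 0.212). The slope of 0.09 log2 units per step passed over all libraries (edgeR adjusted p = 0.0330) but not over the 8 libraries of 0, 1, 10 and 100 nM (0.13, edgeR adjusted p = 0.151).

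Utf1, the most abundant of the 9, encodes a chromatin-bound transcription factor of pluripotent cells and is also one of the 8 mES cell markers used above. It lies on chromosome 7 from 139943856 to 139945112 on the + strand, with 1160 bases of counted exon in 2 blocks. With 485 to 681 counts per library it was the best measured gene of the group. The libraries gave 71.5 and 79.0 RPKM at 0 nM, 93.2 and 80.4 at 0.3 nM, 93.4 and 90.9 at 1 nM, 107 and 81.3 at 3 nM, 94.1 and 101 at 10 nM, then 84.0 and 79.2 at 100 nM. All libraries with dTAG13 lay above both of 0 nM, although the second 100 nM library (79.2 RPKM) was only just above the second 0 nM library (79.0 RPKM). Among the doses with dTAG13 the highest mean was at 10 nM (97.3 RPKM) and the lowest at 100 nM (81.6 RPKM).

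The rise of Utf1 passed at 10 nM, where it was 1.29-fold (log2 fold change 0.37, standard error 0.10, edgeR adjusted p = 0.0113). It lost the call without the first 0 nM library (0.30, edgeR adjusted p = 0.134) or the second 10 nM library (0.33, edgeR adjusted p = 0.0766). At 3 nM the log2 fold change of 0.32 stood at the threshold (standard error 0.10, edgeR adjusted p = 0.0498) and passed under only 7 of 22 alternatives. Within 1 numbering the difference from 0.3 to 3 nM was 0.11 (edgeR adjusted p = 0.604). At 100 nM the log2 fold change was 0.12 (95% interval -0.10 to 0.33, edgeR adjusted p = 0.461), and between 10 and 100 nM it was -0.25 (95% interval -0.46 to -0.05, edgeR adjusted p = 0.270).

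**Figure D2:**
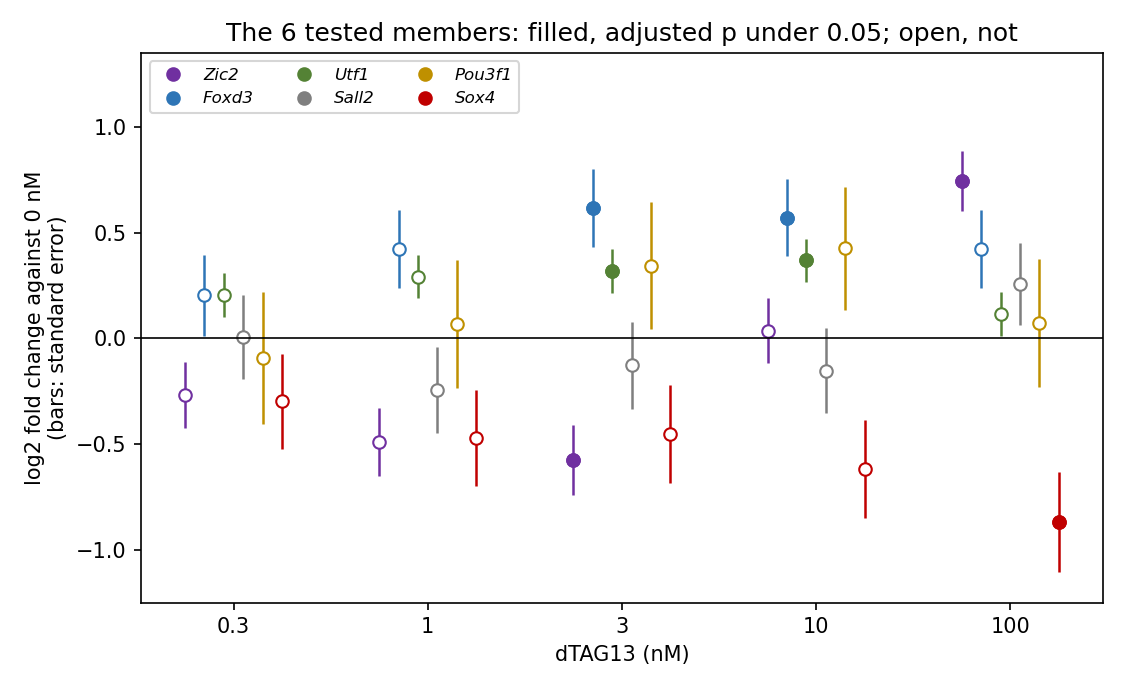
Log2 fold change against 0 nM (vertical axis, bars of 1 standard error) of the 6 tested genes at each dose of dTAG13 in nM (horizontal axis), with filled points where the edgeR adjusted p was under 0.05. Zic2 and Foxd3 are both filled at 3 nM on opposite sides of 0, and at 100 nM only Zic2 (0.75) and Sox4 (-0.87) are filled.

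Of the homeodomain genes, Pou3f1, which encodes the POU factor OCT6, was low and showed no change that passed. It lies on chromosome 4 from 124657646 to 124660655 on the + strand in 1 exon of 3010 bases. The libraries gave 1.82 and 1.29 RPKM at 0 nM, 1.57 and 1.33 at 0.3 nM, 1.61 and 1.64 at 1 nM, 2.01 and 1.93 at 3 nM, 2.01 and 2.16 at 10 nM, then 1.37 and 1.89 at 100 nM. The 3 and 10 nM libraries lay above the rest, and those of 100 nM overlapped the range of 0 nM. With 23 to 38 counts per library the interval of the log2 fold change at 10 nM ran from -0.17 to 1.03 (95%, edgeR adjusted p = 0.359) and at 100 nM from -0.55 to 0.70 (edgeR adjusted p = 0.899). A 1.5-fold rise was thus neither shown nor excluded at these doses.

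Otx2, the homeobox gene that drives entry into the formative state, was near the limit of detection. It lies on chromosome 14 from 48657677 to 48667644 on the - strand. It had 2 and 1 counts at 0 nM, 7 and 5 at 0.3 nM, 1 and 6 at 1 nM, 1 and 2 at 3 nM, 3 and 2 at 10 nM, then 3 and 6 at 100 nM. The most counts were at the lowest dose above 0. The ratio of 0.3 to 0 nM from these counts was 4.21 (95% exact counting interval 1.14 to 23.2), that of 100 to 0 nM was 2.95 (0.737 to 17), and Otx2 passed in none of the 8 comparisons between doses (lowest edgeR p = 0.0647 before adjustment and 0.444 after it). Such intervals and limits cover counting error alone, because they take in no spread between libraries. No molecular identifiers were used, so copies of a molecule could be counted apart and the intervals be too narrow.

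Fgf5, the secreted growth factor, lies on chromosome 5 from 98254184 to 98277033 on the + strand. It had no counts in either 0 nM library, where the upper limit is 3 counts per library, 0 and 2 at 0.3 nM, 0 and 2 at 1 nM, 2 and 0 at 3 nM, 4 and 3 at 10 nM, then 1 and 0 at 100 nM. The ratio of the 10 nM counts to this limit at 0 nM was 1.17, which leaves out the counting error of the 4 and 3 counts. The second 10 nM library was itself at 3 counts, so a rise was not shown. Fgf5 passed in none of the 8 comparisons (lowest edgeR adjusted p = 0.204, for 10 against 0 nM, the only one that was under 0.05 before adjustment). In all, 6 of the 12 libraries held no Fgf5 count, so its absence at any dose cannot be read from them.

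Set side by side by dose, none of the 6 tested genes passed at 0.3 or 1 nM, where 0.0703% and 2.38% of all tested genes did by edgeR. An unadjusted p under 0.05 was found for 0 of the 6 genes at 0.3 nM, against 7.58% of all tested genes, and for 4 at 1 nM, against 13.5%. DESeq2 passed none of the 6 at either dose. At 3 nM 3 of 6 passed, Foxd3 and Utf1 higher and Zic2 lower, against 9.53% of all genes, and at 10 nM 2 of 6 passed, Foxd3 and Utf1, both higher, against 17.7%. None passed by edgeR or DESeq2 from 0.3 to 3 nM, where 5.43% of genes did. An unadjusted p under 0.05 in that step was found for 1 of the 6, Foxd3, and for 18.8% of all tested genes. From 1 to 10 nM 1 of 6 passed, Zic2, where 6.27% did. The doses share the 0 nM libraries, so these counts are not independent of one another. The count at 3 nM ran from 0 (DESeq2) to 3 over the alternatives and that at 10 nM from 0 (without the first 0 nM library) to 3. At 100 nM both libraries of 5 of the 6 genes lay outside the range of 0 nM, in 4 genes above it and in Sox4 below it. With 2 libraries a dose this was common: it held for 61.7% of all tested genes, 30.4% above and 31.3% below. The statements that libraries of other doses lay outside those of 0 nM lean on the same 2 libraries of 0 nM. Their share over all tested genes was not counted.

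Beyond the 9 genes, a list of 15 other genes of the formative program was followed, of which all were in the table and 12 were tested. At 100 nM 6 of the 12 rose, 3 fell and 3 did not pass, where 23.4% of all tested genes passed. The median log2 fold change of the 12 was 0.33, beside -5.5e-04 over all tested genes. At 10 nM 7 rose and 3 fell, against 17.7% of all tested genes that passed. In the 3 nM comparison 4 rose and 3 fell, against 9.53%. The count at 100 nM ran from 7 to 9 over the alternatives, lowest without the first 0 nM library. The 7 calls at 3 nM were less stable, with 3 left without the first 0 nM library or without the first 3 nM library and 4, all of them higher, with no normalization factors.

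The 4 formative DEGs that rose at 100 nM rose over the dose order too. That slope uses the same 0 and 100 nM libraries, so it is no separate support. Lef1, a TCF/LEF factor that carries WNT signals to DNA, stood at 2.92 and 3.03 RPKM at 0 nM, was at 5.37 and 4.56 RPKM at 10 nM, and reached 8.22 and 8.69 RPKM at 100 nM (log2 fold change 1.5, standard error 0.18, edgeR adjusted p = 4.1e-07). Lin28b, an RNA-binding protein that blocks let-7 maturation, went from 3.99 and 5.07 RPKM to 10.5 and 10.4 RPKM (1.2, standard error 0.13, edgeR adjusted p = 6.3e-08). Pim2, which encodes a serine/threonine kinase, went from 2.85 and 3.89 RPKM to 9.85 and 8.37 RPKM (1.43, standard error 0.22, edgeR adjusted p = 1.5e-05). Tcf15, a bHLH factor linked to exit from the naive state, went from 11 and 9.22 RPKM to 17.9 and 18.5 RPKM (0.85, standard error 0.22, edgeR adjusted p = 0.00640). The call of Tcf15 was lost without the second 0 nM library (0.72, edgeR adjusted p = 0.0854) or the second 100 nM library (0.82, edgeR adjusted p = 0.0508). In all 4 genes the 100 nM libraries lay above every 0 nM library, as was so for 30.4% of all tested genes. Choosing the 4 by their rise nearly fixed this.

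Lin28a, the paralog of Lin28b, moved the other way. It stood at 73.2 and 75.9 RPKM at 0 nM and at 47.5 and 48.1 RPKM at 100 nM (log2 fold change -0.64, standard error 0.066, edgeR adjusted p = 3.8e-08), and it was the only formative DEG that fell at 100 nM. The remaining calls at 100 nM were under 1.5-fold, and the genes named for them were chosen after their values were seen. Dnmt3b rose (0.34) while Dnmt3a fell (-0.56), so the genes of the de novo DNA methyltransferases moved in opposite directions. Tead2 fell (-0.35), a call lost without the first 0 nM library (edgeR adjusted p = 0.0648), and Sox11, of the same SOXC group as Sox4, did not pass (-0.13, edgeR adjusted p = 0.312).

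Naive pluripotency genes were tested in full, all 13 of the list. At 100 nM 2 rose, 6 fell and 5 did not pass, with a median log2 fold change of -0.11, where 23.4% of all tested genes passed. The count that passed ran from 6 (DESeq2) to 8 over the alternatives. The 3 DEGs all fell: Tcl1, a coactivator of AKT, from 16.1 and 12.8 RPKM to 2.21 and 1.39 RPKM (log2 fold change -3.00, standard error 0.23, edgeR adjusted p = 2.9e-10), Tbx3, a T-box factor, from 40.0 and 38.8 to 21.6 and 24.6 RPKM (-0.77, standard error 0.072, edgeR adjusted p = 8.9e-09), and Tfcp2l1 from 129 and 131 to 82.6 and 84.7 RPKM (-0.64, standard error 0.048, edgeR adjusted p = 1.5e-10). Nanog (0.52) and Klf4 (0.28) rose. Klf2, Klf5, Zfp42, Prdm14 and Dppa3 were the 5 that did not pass. The genes of this list that were no DEGs were named after their values were seen.

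**Figure D3:**
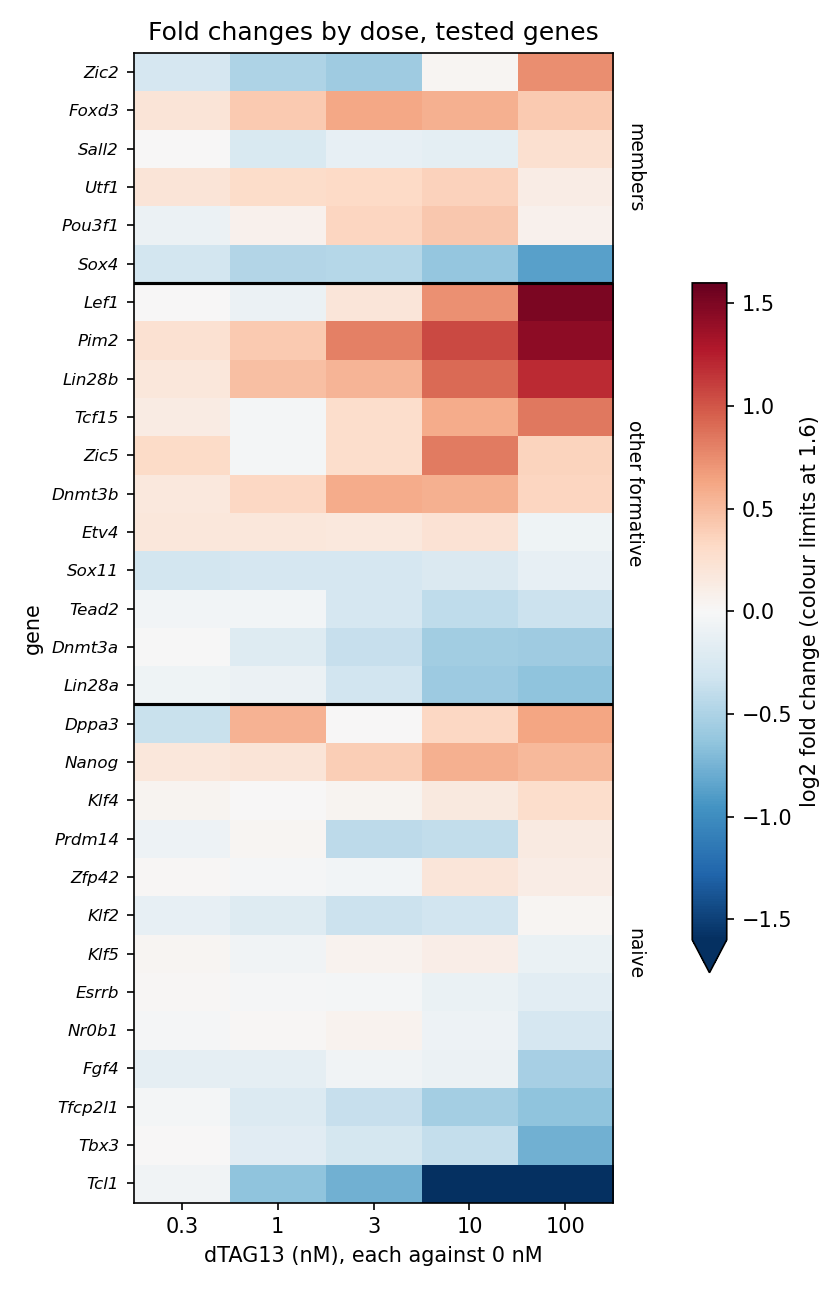
Log2 fold change against 0 nM (colour, red higher and blue lower, limits at 1.6) of the 6 tested members, other formative genes that were tested and 13 naive genes (rows) at 5 doses of dTAG13 in nM (columns). Among the formative genes Lef1, Pim2, Lin28b and Tcf15 deepen towards 100 nM, whereas Foxd3, Utf1 and Dnmt3b are strongest at 3 or 10 nM, and Tcl1, at -2.01 and -3.00, lies beyond the colour limit at 10 and 100 nM.

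Genes of the lineages that follow the primed state were mostly under the filter. Of 7 primitive streak genes 2 were tested, T and Eomes, and both rose at 3 and 10 nM. Only Eomes passed at 100 nM (log2 fold change 0.33, edgeR adjusted p = 0.0469). Over these doses the share of all tested genes that passed grew from 9.53% to 17.7% and then 23.4%. The call of Eomes passed under 13 of 22 alternatives and was lost with DESeq2 (adjusted p = 0.139), with a replicate block (edgeR adjusted p = 0.0543) and without the second 0 nM library or either 100 nM library (edgeR adjusted p from 0.113 to 0.364). Of 7 neural progenitor genes 3 were tested, and Nes, the intermediate filament gene nestin, rose from 1.62 and 2.38 RPKM at 0 nM to 5.14 and 5.84 RPKM at 100 nM (log2 fold change 1.45, standard error 0.16, edgeR adjusted p = 1.7e-07). Pax6, a homeobox gene of the neural plate and eye, lay under the filter but passed in the fit of all genes with a count (edgeR adjusted p = 2.2e-08). It had 1 and 2 counts at 0 nM and 28 in each 100 nM library, a ratio of 18.4 (95% exact counting interval 5.97 to 91.7). Sox1 and Olig2 did not pass at 100 nM.

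Markers of other cell types were low beside those of mES cells. The summed level of 8 trophectoderm markers was 25.5 to 26.3 RPKM at 0 nM and 23.8 to 24.4 RPKM at 100 nM, that of 7 primitive endoderm markers 6.40 to 6.50 and 4.49 to 4.59 RPKM, and that of 7 fibroblast markers 1.71 to 2.22 and 1.53 to 2.74 RPKM. None of these 22 markers was at 0 in both libraries of 0 nM or in both of 100 nM. Within the trophectoderm list Cdx2 rose from 0.550 to 4.73 RPKM in mean level (edgeR adjusted p = 2.4e-06) and Krt8 fell from 9.06 to 2.22 RPKM (edgeR adjusted p = 7.1e-07). The primitive endoderm sum was mostly Lama1, which fell from 4.44 to 2.12 RPKM (edgeR adjusted p = 1.5e-06). Pdgfra, under the filter, rose from 0.110 to 0.584 RPKM (edgeR adjusted p = 4.1e-04 in the fit of all genes with a count). Gata6, Gata4, Sox17, Sox7 and Dab2 did not pass. These genes were named after their values were seen. The share of these markers in the changes of the 9 genes was not tested.

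The genes whose course over the 12 libraries was most like that of the 2 members that were DEGs at 100 nM were named by Pearson's r of log2(RPKM + 0.1). For Zic2 they included Smarcc1 (r = 0.93) and Vim (0.92), whose log2 fold changes at 100 nM were 0.15 and 0.41. For Sox4 they were Mob3c (r = 0.93), Fads1 (0.92) and Smr3a (0.90), with log2 fold changes of -1.41, -0.75 and -3.11. Mob3c and Smr3a had mean levels of only 1.16 and 1.53 RPKM. These values describe 12 libraries that share their doses, and the order of the nearest genes was not tested.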

How the data were processed

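RNA-seq of mES cells with degron-tagged BRG1 was analysed at 6 doses of dTAG13, with 2 libraries per dose. The authors made the libraries with the SMART-Seq Stranded Kit and deposited raw counts of read pairs per gene, not normalized or filtered. Per the labels and the file headers, reads were trimmed with Trim Galore, aligned to mm10 with HISAT2 and counted on exons with featureCounts 2.0.1, which did not use strand and left out multi-mapped pairs. Gene lengths came with the deposited counts.

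Totals ran from 4663484 to 6375582 counts per library. R 4.3.3, edgeR 4.0.16 and DESeq2 1.42.0 were used. TMM factors were computed on the 11378 genes whose mean over the libraries reached 1 RPKM, and all 6 doses were fitted together by edgeR's quasi-likelihood test. Members under 1 RPKM were taken from a fit of the 23204 genes with a count. The trend was the slope per step in the dose order. A count of 3 per library was the floor. The steps were tested on simulated data. The members, the 8 lists of other genes and the tests were chosen with earlier results of these data known. Other genes were named where they were DEGs at 100 nM, and for each member that was one, the 3 genes most alike. Some genes of these lists are counted but not reported here by name. Alternatives covered the test, normalization, filter, fold-change minimum, pairwise fits, a replicate block and each library left out in turn.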

Additional observations from a re-analysis of the deposited data

How the results depend on the processing

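In the comparisons of the 9 members, 1612 of the repeats gave the same side of the threshold, 61 lost a call and 7 gained one, and none that passed changed direction. Most of these comparisons, among them all of Otx2, Fgf5 and Sox3, had not passed in the main fit and had no call to lose. These totals therefore do not measure how stable the calls were. Zic2 at 100 nM passed under all 22 alternatives (log2 fold change 0.61 to 0.90, edgeR or DESeq2 adjusted p from 9.8e-06 to 0.0140), and Sox4 at 100 nM under 20 (-1.54 to -0.41, adjusted p from 1.3e-04 to 0.246). At 3 nM Zic2 passed under 17 of 22, Foxd3 under 16 and Utf1 under 7, and DESeq2 gave adjusted p of 0.110 for Zic2, 0.147 for Foxd3 and 0.0942 for Utf1. DESeq2 also ended the calls of Foxd3 at 10 nM (0.117), of Zic2 from 1 to 10 nM (0.165) and of the Zic2 slope (0.141). Deviations of same-numbered libraries from their dose means had correlations of -0.0949 to 0.0926 over 15 pairs of doses. These deviations include counting noise, so the values cannot show whether the numbers pair the libraries. With a replicate block 1255 genes were DEGs at 100 nM against 1273, and Utf1 at 3 nM (adjusted p = 0.0537), Zic2 from 1 to 10 nM (0.0540) and Eomes at 100 nM (0.0543) no longer passed.

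Counts of DEGs moved by over 1.5 times as follows, and the cause was not tested. Against 0 nM, DESeq2 gave 0 at 0.3 nM, 53 at 1 nM and 299 at 3 nM, and it gave 136 from 0.3 to 3 nM and 187 from 1 to 10 nM. At 0.3 nM the likelihood ratio test gave 4 and no filter gave 10. With no fold-change minimum the counts were 8, 271, 1084, 2018 and 2659 at 0.3, 1, 3, 10 and 100 nM, 618 from 0.3 to 3 nM, 713 from 1 to 10 nM and 267 from 10 to 100 nM. Leaving out 1 library gave 1 to 2 DEGs at 0.3 nM, 32 to 114 at 1 nM, 122 to 233 from 0.3 to 3 nM and 57 to 116 from 10 to 100 nM. The lowest of these were without the first 0 nM, the second 1 nM, the first 0.3 nM and the second 100 nM library. Depth limits Otx2, Fgf5 and Sox3, with 0 to 19 counts per library.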
